A study of Mus musculus with 9 samples.

Results

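Granulosa cells of mouse ovaries, taken 48 h after pregnant mare serum gonadotropin (PMSG) and before any human chorionic gonadotropin (hCG), are described here from 3 RNA-seq libraries of the 9 in the series. All libraries labelled 0 h were used and no measured value entered their choice. The mice were of the Kunming strain at postnatal day 21 and received 5 IU of PMSG. The other 6 libraries come from animals primed in the same way and then given 5 IU of hCG. The labels name no other treatment, no transgene, no sorting step and no batch, and they do not say whether replicates 1, 2 and 3 came from separate animals or pools, so the spread given here is that between libraries and may be technical. With a single group no test was made, and each level is a mean ± SD over these 3 libraries unless the 3 values are printed, always in the order of replicates 1, 2 and 3.

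Granulosa cells are the somatic cells that surround and feed the oocyte. Follicle-stimulating hormone, which PMSG mimics in rodents, acts through cyclic AMP to make them divide, secrete inhibin and convert androgens from the neighbouring theca into oestradiol, and it makes the cells of the largest follicles acquire receptors for luteinizing hormone. They are then ready for the ovulatory surge, which hCG imitates, but in its absence they keep the oocyte in meiotic arrest and keep the genes of the ovulatory response low.

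Levels are in FPKM, the fragments of a transcript corrected for its length and for the size of the library, so genes can be set beside each other within a library. FPKM values summed to 495500, 491920 and 492246 in the 3 libraries. The number of reads behind a value is unknown, so no counting error can be given. Of 25059 genes, 13811, 13732 and 13823 reached 1 FPKM in the 3 libraries, and 7086, 7130 and 7178 reached 10 FPKM. The most abundant 100 genes were much the same in each library: 91 were among the first 100 nuclear protein-coding genes of all 3, and 109 in at least 1. Replicate 3 stood somewhat apart. Among 4144 genes averaging 20 FPKM or more, 159 differed by 1.5 times or more between their highest and lowest library, and replicate 3 lay farthest from the middle library in 95 of these, against 37 for replicate 1 and 27 for replicate 2.

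The labelled cell type was checked against marker lists. For the counts below, 55.2% of all nuclear protein-coding genes averaged 1 FPKM or more and 31.6% averaged 10 FPKM or more. All 13 granulosa markers were above 1 FPKM, and their summed level was 11959.9, 11334 and 11898 FPKM. Of the 20 oocyte markers 16 reached 1 FPKM, with a summed level of 98.1, 62.9 and 66.3 FPKM. Gdf9, a growth factor secreted by the oocyte, was the highest of them at 16.2, 11.1 and 10.4 FPKM. Stroma and smooth muscle markers summed to 192, 188 and 127 FPKM, with 12 of 15 at 1 FPKM or more, and the fibrillar collagen Col3a1 was the highest at 49.5, 48.1 and 30.5 FPKM. Endothelial markers summed to 40.9, 35.6 and 31.4 FPKM, none averaging 10 FPKM. Leukocyte markers summed to 43.1, 66.9 and 42.8 FPKM, with 11 of 16 at 1 FPKM or more. Cd74, a chaperone of class II antigen presentation, was the highest at 7.39, 18.3 and 13.0 FPKM, and the pan-leukocyte gene Ptprc averaged 0.670 FPKM. Haemoglobin transcripts were the clearest sign of blood, with Hba-a1 at 66.4, 80.7 and 103 FPKM. Its near-identical copy Hba-a2 was listed at 0 in replicates 1 and 2. Theca cannot be separated as cleanly, because granulosa cells share several of its listed genes. Of the 12 theca markers 9 averaged 10 FPKM or more, with Aldh1a1 at 72.6, Ephx1 at 27.1 and the hedgehog target Ptch1 at 21.6 FPKM. The lowest were the theca peptide Insl3 at 0.601 FPKM and the hedgehog target Gli1 at 0.289 FPKM, beside 158, 115 and 95.1 FPKM for Cyp17a1, the theca enzyme that makes androgens; the part of theca cells in the Cyp17a1 level was not tested. In these bulk libraries fewer cells of a type and less RNA per cell cannot be told apart.

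**Figure D1:**
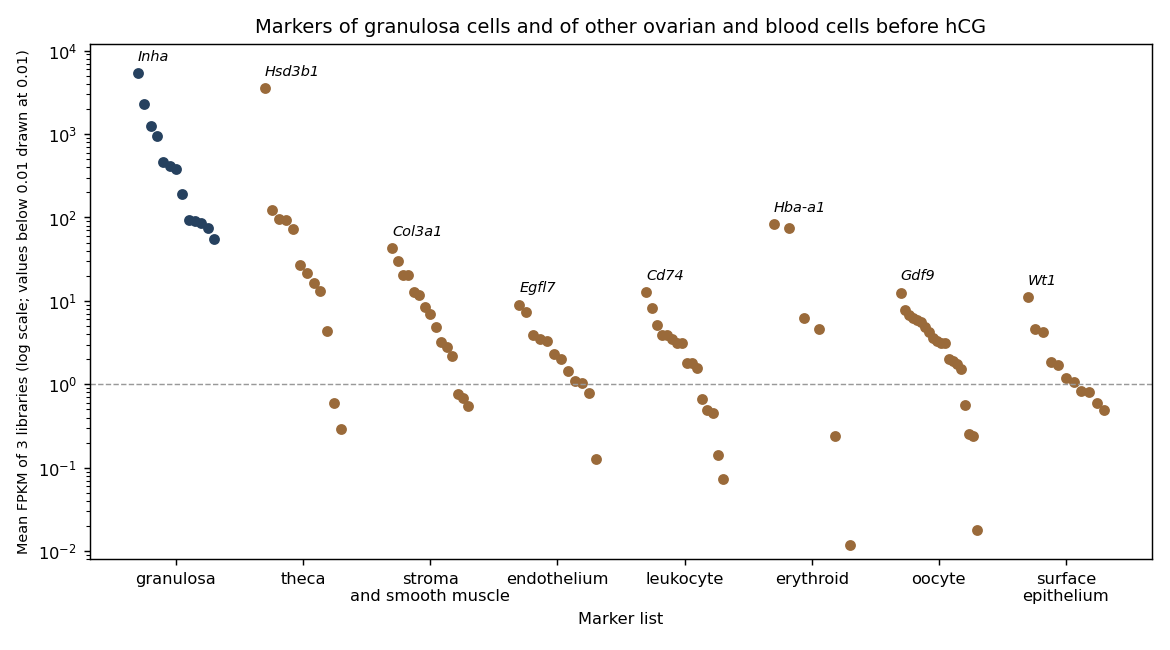
Mean FPKM over the 3 libraries (log scale) of each gene in 8 marker lists; every point is 1 gene, the highest gene of each list is named, and the dashed line marks 1 FPKM. The granulosa markers all lie above 50 FPKM, whereas the highest endothelial, leukocyte, oocyte and surface epithelial markers lie between 9.04 and 12.9 FPKM. Wt1, the highest surface epithelial marker, is also on the list of granulosa identity factors.

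The resting transcriptome was led by the inhibin alpha subunit. Inha (chr1:75507077-75510366, plus strand, in mm10 with GENCODE M21 gene coordinates, as for all genes here) stood at 5715, 5283 and 5239 FPKM and ranked first of 21937 nuclear-encoded protein-coding genes in all 3 libraries, the ranking used throughout. It alone made up 1.42 ± 0.0457% of the summed FPKM of those genes. Hsd3b1 (chr3:98852194-98859794, minus strand), the 3-beta-hydroxysteroid dehydrogenase that turns pregnenolone into progesterone, followed at 3847, 3266 and 3461 FPKM. Other members of its gene family are close copies and could share reads with it. The endothelin-converting enzyme gene Ece1 (chr4:137862237-137965229, plus strand) came next by its mean but varied most among the leading genes, at 3844, 2982 and 2052 FPKM, and 96.0% of its level came from 1 of its 3 transcripts. Gja1 (chr10:56377330-56402513, plus strand), which encodes connexin 43, the main gap junction protein between granulosa cells, stood at 2849, 2749 and 3099 FPKM, and Inhba, the activin beta-A subunit, at 2296, 2173 and 2413 FPKM. Every library's Inha value was above every value of the others, and Hsd3b1 lay above Gja1 without overlap. Ece1 overlapped Hsd3b1, Gja1 and Inhba across libraries, so its place among them is not settled. With the most abundant transcript alone Gja1 ranked 2 and Hsd3b1 4.

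Most of the other leading genes serve protein synthesis. Among the 30 most abundant, 13 encode ribosomal proteins, 4 histones, 2 endoplasmic reticulum chaperones (Hsp90b1 at 1068 ± 48.4 FPKM and Calr at 957 ± 40.6 FPKM) and 1 the translation elongation factor Eef1a1. The other 10 were Inha, Hsd3b1, Ece1, Gja1, Inhba, Inhbb, Actb, Prkar2b, Serpine2 and Cyp11a1, of which Actb, cytoplasmic actin, alone is a general housekeeping gene. Ribosomal protein genes and histone genes have many near-identical copies, so their single values are uncertain. Genes of folding and secretion were abundant too. All 22 listed averaged 10 FPKM or more, beside 31.6% of all nuclear protein-coding genes. Of the 22, 16 averaged 100 FPKM or more, a level that 587 of all 21937 genes reached. The chaperone Hspa5 averaged 778 ± 12.4 FPKM and the disulphide isomerase Pdia3 530.2 ± 18.8 FPKM.

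**Figure D2:**
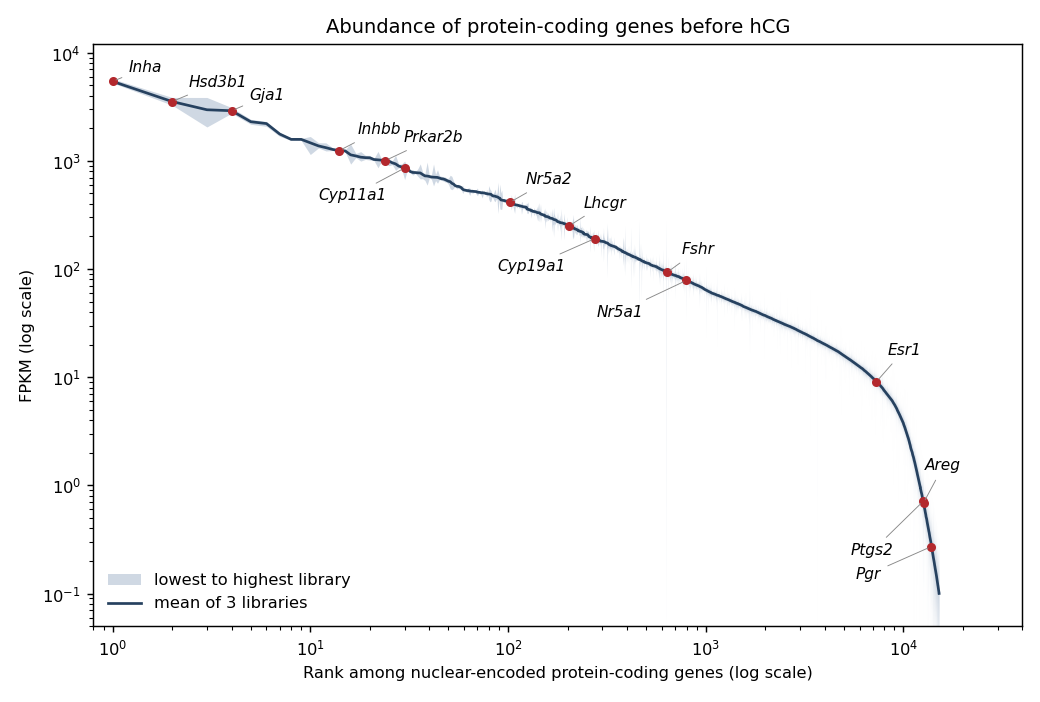
FPKM of nuclear-encoded protein-coding genes against their rank (both axes log scale); the line is the mean of the 3 libraries, the shading spans the lowest to the highest library, and red points are named genes. Inha, Hsd3b1, Gja1, Inhbb, Prkar2b and Cyp11a1 lie within the first 30 genes, the gonadotropin receptors Lhcgr and Fshr at ranks 204 and 638, and the ovulatory genes Pgr, Areg and Ptgs2 below 1 FPKM.

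Inhibin and activin subunits were the most abundant hormone transcripts of the lists examined. Activins are dimers of beta subunits that stimulate FSH release, inhibins join a beta subunit to the alpha subunit and restrain it, and follistatin binds and neutralises activin. Inhbb, the beta-B subunit (chr1:119415465-119422248, minus strand), stood at 1297, 1224 and 1198 FPKM, below Inhba in every library. Follistatin (Fst) was at 447, 439.8 and 505 FPKM. The alpha subunit exceeded the 2 beta subunits added together by 1.59, 1.56 and 1.45-fold, and Inhba exceeded Inhbb 1.85 ± 0.140-fold (SD, n = 3). Fst was 0.131 ± 0.00790 times the sum of the beta subunits. Inha, Inhba, Inhbb and Fst made up 2.47 ± 0.0522% of the nuclear protein-coding sum. The other beta subunits, Inhbc and Inhbe, were listed at 0 in 2 of the 3 libraries each, and the second activin-binding protein, Fstl3, averaged 0.385 FPKM. Amh, the anti-Müllerian hormone of small growing follicles, stood at 84.3, 69.0 and 71.5 FPKM.

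Both gonadotropin receptors were present, and the receptor for luteinizing hormone was the higher. Lhcgr (chr17:88716481-88791990, minus strand) stood at 283, 239 and 230.0 FPKM and Fshr (chr17:88984952-89200675, minus strand) at 85.0, 95.4 and 98.5 FPKM. The ratio of Lhcgr to Fshr was 3.33, 2.50 and 2.34, so Lhcgr was higher in each library. Prlr, the prolactin receptor that sustains the corpus luteum, lay between them at 203, 189 and 171 FPKM, and the 3 receptors kept this order with no overlap between libraries. Oxtr, the oxytocin receptor (22.4, 29.0 and 17.2 FPKM), and Ghr, the growth hormone receptor (10.3, 10.7 and 18.9 FPKM), overlapped each other. The receptors for thyrotropin, gonadotropin-releasing hormone and vasopressin 1a averaged 0.219, 0.212 and 0.155 FPKM (Tshr, Gnrhr and Avpr1a). Taking only the most abundant transcript of each gene moved Prlr from rank 281 to 437, and Lhcgr from 204 to 174.

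Receptors for the TGF beta family were led by Bmpr2, the type II receptor used by the oocyte's growth factors GDF9 and BMP15. It stood at 275, 266 and 315 FPKM, above every other member in every library. Type I receptors followed, with Tgfbr1 (ALK5) at 95.6, 97.9 and 93.6 FPKM and Bmpr1b (ALK6) at 73.5, 79.6 and 102 FPKM, which overlapped. Amhr2, the receptor for anti-Müllerian hormone, was steady at 56.8, 55.9 and 54.4 FPKM. Activin's own type II receptors were lower, Acvr2a at 11.0 ± 0.124 FPKM and Acvr2b at 4.40 ± 0.472 FPKM, and Tgfbr3, the co-receptor through which inhibin blocks activin, averaged 22.9 ± 3.84 FPKM. Of the 14 receptors listed, 13 reached 1 FPKM, beside 55.2% of all nuclear protein-coding genes.

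Among growth factor receptors, 23 of 29 (79.3%) reached 1 FPKM, beside the same 55.2% of all. Igf1r, the insulin-like growth factor receptor that amplifies FSH action, was the highest at 77.8, 89.0 and 89.8 FPKM, and its ligand Igf1 was at 94.4, 113 and 107 FPKM. The epidermal growth factor receptor Egfr, which relays the ovulatory signal from mural to cumulus cells, was already at 25.4, 26.5 and 28.0 FPKM. The natriuretic peptide pair that holds the oocyte in meiotic arrest was present on both sides: Nppc, the C-type natriuretic peptide precursor, at 113, 116 and 117 FPKM, and its guanylyl cyclase receptor Npr2 at 80.7, 81.0 and 95.2 FPKM. Nppc varied less between libraries than most genes, with a coefficient of variation of 1.85%, where the median over genes averaging 20 FPKM or more was 5.95%. The membrane progestin receptor components Pgrmc1 (86.7 ± 4.05 FPKM) and Paqr7 (48.2 ± 3.13 FPKM) exceeded the nuclear progesterone receptor Pgr, which stood at 0.254, 0.341 and 0.221 FPKM. Ptgfr, the prostaglandin F receptor, was at 48.5, 48.1 and 39.2 FPKM.

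**Figure D3:**
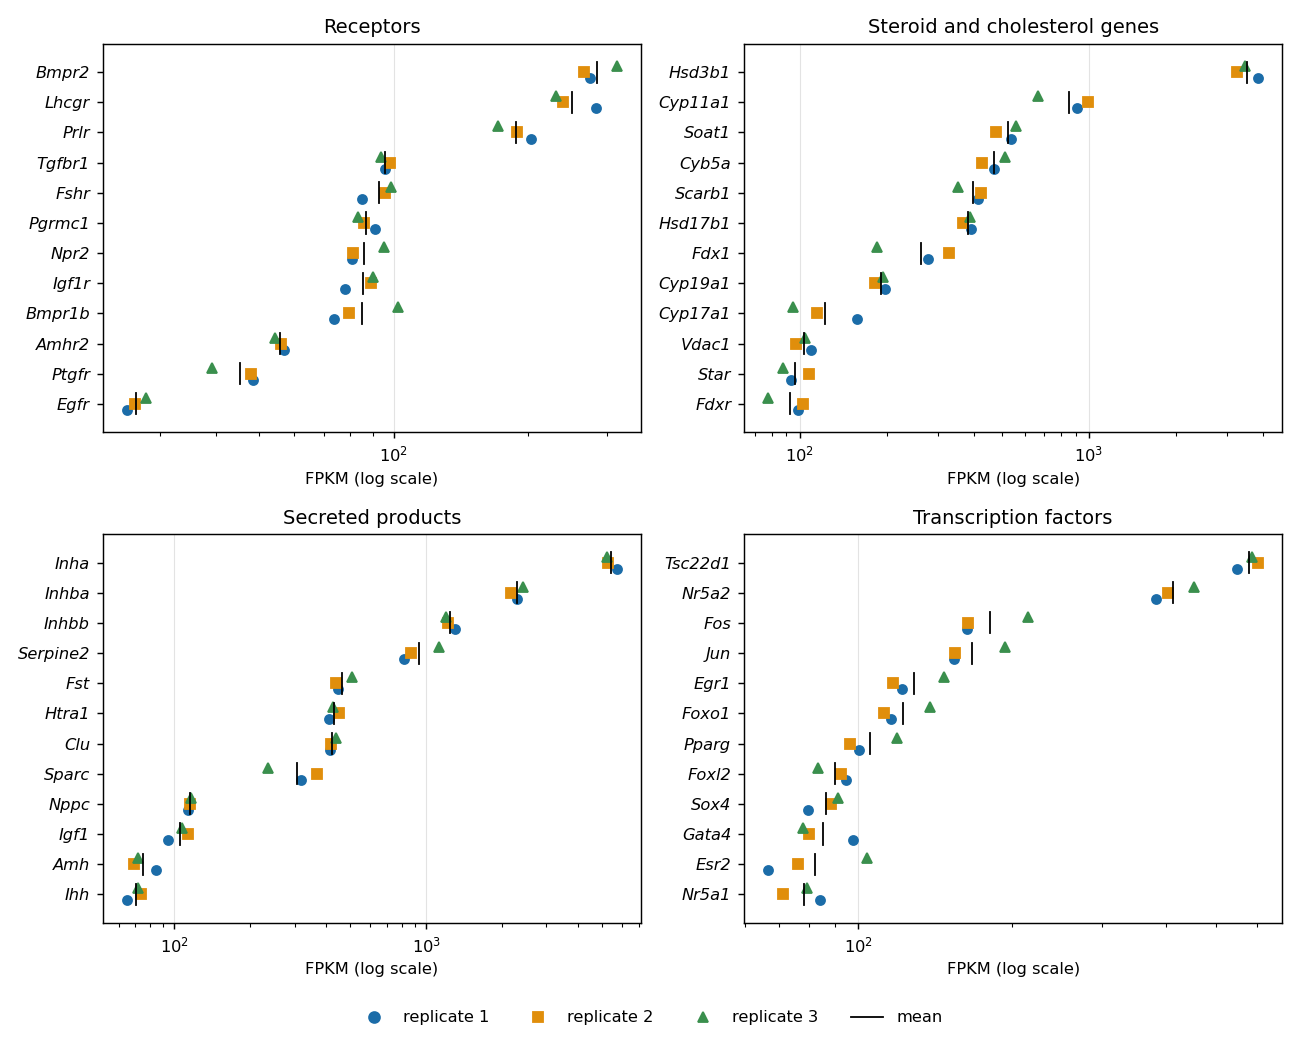
FPKM (log scale) of 12 genes each in 4 groups; the 3 symbols are the libraries and the vertical tick their mean. Lhcgr, Prlr and Fshr occupy separate ranges, Hsd3b1 lies apart from all other steroid genes, the inhibin and activin subunits are the highest secreted products, and Nr5a2 is the highest nuclear receptor.

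The cyclic AMP pathway, which carries both gonadotropin signals, was dominated by a single regulatory subunit of protein kinase A. Prkar2b, the RII-beta subunit (chr12:31958476-32061296, minus strand), stood at 1041, 938 and 1036 FPKM and ranked 24. It made up 89.4 ± 0.717% of the 4 regulatory subunits and was 9.95 ± 0.628 times Prkar1a, the RI-alpha subunit. The catalytic subunits Prkaca and Prkacb averaged 35.4 ± 3.02 FPKM and 25.9 ± 0.724 FPKM, far below it. Gnas, the stimulatory G protein alpha subunit, was at 121, 130.3 and 126 FPKM. Adcy9 contributed 63.6 ± 2.39% of the summed adenylyl cyclases, at 38.6, 39.6 and 46.1 FPKM. Of the phosphodiesterases, which break cyclic AMP down, Pde8a and Pde7b together made up 51.8 ± 3.06% of the listed sum. Rgs2, a regulator that damps G protein signalling, was at 66.8, 83.6 and 90.5 FPKM.

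The enzymes of progesterone and oestradiol synthesis were both in place before hCG. Cyp11a1 (chr9:58006411-58027023, plus strand), the side-chain cleavage enzyme that starts steroid synthesis from cholesterol, stood at 911, 991 and 669 FPKM and ranked 30. Its electron donor Fdx1, ferredoxin, was at 277, 327 and 186 FPKM, and ferredoxin reductase Fdxr at 98.4, 103 and 77.9 FPKM. Star, which brings cholesterol to the inner mitochondrial membrane and is the acutely regulated step, was much lower at 93.3, 108 and 87.8 FPKM. Cyp11a1 was 8.85 ± 1.10 times Star and Hsd3b1 4.23 ± 0.938 times Cyp11a1 (SD, n = 3). Replicate 3 was the lowest for Cyp11a1, Fdx1, Fdxr and Star, and for the summed stroma markers (192, 188 and 127 FPKM). It was also lowest for all 7 listed luteal genes, beside 30.9% of all genes with a mean above 0. Granulosa cells also express these luteal genes, and Cyp11a1 is itself on that list. The part of other cells in the lower values of replicate 3 was not tested.

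For oestradiol, Cyp19a1, the aromatase (chr9:54165937-54268110, minus strand), stood at 197, 182 and 194 FPKM. Hsd17b1, which reduces oestrone to oestradiol, was higher at 392, 368 and 389 FPKM, above aromatase in every library. Cyb5a, cytochrome b5, averaged 471 ± 43.2 FPKM, and Por, the electron donor of the microsomal P450 enzymes, 36.0 ± 3.85 FPKM. Cyp17a1 ranked 461. All 8 genes listed for oestradiol synthesis, Cyp17a1 among them, averaged 10 FPKM or more, beside 31.6% of all nuclear protein-coding genes. Enzymes that inactivate or convert steroids were present too: Akr1c14, a 3-alpha-hydroxysteroid dehydrogenase, was at 271, 268 and 345 FPKM, and Cyp1b1, which hydroxylates oestradiol, at 60.9, 76.5 and 74.0 FPKM. Akr1c18, the 20-alpha-hydroxysteroid dehydrogenase that ends progesterone action, was at 33.3, 33.7 and 16.8 FPKM.

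Cholesterol handling was led by storage and uptake genes. Soat1, which esterifies cholesterol for lipid droplets, averaged 525 ± 42.6 FPKM, and Scarb1, the high-density lipoprotein receptor, 396 ± 38.2 FPKM. Soat1 was spread over several transcripts: its rank was 64 with transcripts summed and 187 with the most abundant alone. All 30 listed genes of sterol and fatty acid synthesis averaged 10 FPKM or more, beside 31.6% of all nuclear protein-coding genes. The desaturase Scd2 led them at 725, 727 and 694 FPKM, followed by farnesyl diphosphate synthase Fdps at 274, 241 and 200.5 FPKM. Replicate 3 was the lowest library for 24 of these 30 genes, where 30.9% of all genes with a value above 0 were lowest there.

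Nuclear receptors were led by Nr5a2, liver receptor homologue 1, which granulosa cells need for ovulation and luteinization. It stood at 382, 402 and 452 FPKM (chr1:136842571-136960448, minus strand), above every other nuclear receptor in every library, and made up 42.1 ± 0.497% of the 41 listed receptors. Its relative Nr5a1, steroidogenic factor 1, was at 84.1, 71.4 and 79.6 FPKM, a ratio of 4.54, 5.63 and 5.68. Pparg stood at 101, 96.5 and 119 FPKM. Oestrogen receptor beta, Esr2, was at 66.8, 76.1 and 104 FPKM, highest in replicate 3, and exceeded oestrogen receptor alpha, Esr1 (8.23, 9.38 and 9.66 FPKM), 9.00 ± 1.53-fold. Esr2 overlapped both Pparg and Nr5a1 between libraries, whereas Pparg lay above Nr5a1 without overlap. Summing transcripts mattered here: with the most abundant transcript alone Nr5a2 moved from rank 102 to 220, Esr2 from 757 to 1298 and Pparg from 557 to 839.

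Promoters of 4 genes are shown because their genes lead the roles described above: Lhcgr the gonadotropin receptors, Nr5a2 the nuclear receptors, Hsd3b1 the steroid enzymes and Inhba the activin subunits. Each is the 250 bases before the start of the gene in RefSeq (GRCm38.p6, the same assembly as mm10), 5′ to 3′ along the gene, with no base in a GENCODE exon. Capitals mark AGGTCA on either strand, the half-site of many nuclear receptors and the core of the site that Nr5a2 and Nr5a1 bind.
Lhcgr: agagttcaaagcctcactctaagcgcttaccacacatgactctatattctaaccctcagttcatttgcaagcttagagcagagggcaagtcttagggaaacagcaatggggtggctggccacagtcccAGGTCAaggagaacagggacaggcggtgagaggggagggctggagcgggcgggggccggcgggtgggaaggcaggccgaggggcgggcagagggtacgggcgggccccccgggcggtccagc
Nr5a2: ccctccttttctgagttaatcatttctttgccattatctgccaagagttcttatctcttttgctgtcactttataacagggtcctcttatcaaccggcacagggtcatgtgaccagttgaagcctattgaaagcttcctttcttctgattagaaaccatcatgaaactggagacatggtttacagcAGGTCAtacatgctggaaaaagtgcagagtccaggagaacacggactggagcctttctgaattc
Hsd3b1: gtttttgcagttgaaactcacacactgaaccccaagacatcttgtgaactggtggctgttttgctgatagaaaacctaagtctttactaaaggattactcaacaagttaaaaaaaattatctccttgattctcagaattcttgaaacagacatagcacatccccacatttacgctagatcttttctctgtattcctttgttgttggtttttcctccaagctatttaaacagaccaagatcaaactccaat
Inhba: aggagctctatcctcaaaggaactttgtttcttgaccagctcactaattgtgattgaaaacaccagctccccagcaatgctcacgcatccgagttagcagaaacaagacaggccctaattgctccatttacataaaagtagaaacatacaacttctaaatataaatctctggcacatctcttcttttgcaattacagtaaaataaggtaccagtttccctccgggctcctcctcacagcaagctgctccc
These lie at chr17:88792015-88792264, minus strand (Lhcgr), chr1:136960449-136960698, minus strand (Nr5a2), chr3:98859795-98860044, minus strand (Hsd3b1) and chr13:16011601-16011850, plus strand (Inhba). AGGTCA stood at bases -122 to -117 before the start of Lhcgr and at -64 to -59 before the printed start of Nr5a2, counted with -1 next to the start, and in neither of the other promoters. Nr5a2 has a second RefSeq start, whose window (chr1:136953631-136953880, minus strand) holds no AGGTCA. Windows before other genes were scanned too and are not printed. AGGTCA was at -69 to -64 before Inha, where 160 of the 250 bases lie in GENCODE exons. It was also at -28 to -23 before 1 start of Cyp11a1, with all 250 bases in exons, and at -81 to -76 before 1 start of Cyp19a1. The other windows of Cyp11a1 and Cyp19a1, and those of Inhbb, Fshr, Gja1, Prkar2b and Serpine2, held none.

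Over windows of the same length, searched on both strands, AGGTCA was in 14.0% of all 32851 promoters of the table, in 10.7% of those of genes averaging 1 FPKM or more, in 10.5% of those of the 200 most abundant genes and in 14.0% of those of the 200 most abundant outside the ribosomal, histone and other housekeeping families. The table held 130 and 155 of the genes in these last 2 sets. Over all promoters, those of genes averaging 1 FPKM or more and the last set, the full cyclic AMP response element TGACGTCA was in 1.55, 2.58 and 3.27%. CCAAT was in 33.8, 35.3 and 39.7%, and TATAAA in 12.4, 6.46 and 9.35%, in the same order. TGACGTCA was more frequent among the 200 most abundant genes and the ribosomal protein genes than in the set outside the housekeeping families. It was in 4.07% (7 of 172) of promoters of the 200 most abundant genes. Ribosomal protein genes had it in 8.11% (6 of 74), and the set outside the housekeeping families in 7 of 214.

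A wide list held other transcription factors and related regulators, such as Hmgb1, Ybx1 and Pcbp1. In it 144 of 154 (93.5%) averaged 1 FPKM or more, beside 55.2% of all nuclear protein-coding genes. At 100 FPKM or more were 16 (10.4%), beside 2.68% of all nuclear protein-coding genes. Tsc22d1, a leucine zipper regulator induced by TGF beta, was the highest at 549.8, 604 and 589 FPKM. Foxo1, the factor that FSH signalling through AKT restrains, was at 116, 112 and 138 FPKM. Foxl2, which keeps granulosa cells from taking a testicular fate, was at 94.5, 92.4 and 83.7 FPKM, and its library range overlapped those of Gata4 (97.6, 80.3 and 78.1 FPKM) and Sox4 (79.9, 88.6 and 91.3 FPKM). Gata4 exceeded Gata6 1.57 ± 0.108-fold. Some immediate-early factors were not low in this resting state. Fos was at 163, 164 and 215 FPKM, Jun at 154, 154 and 193 FPKM and Egr1 at 122, 117 and 147 FPKM. All 3 are induced by gonadotropins and also by tissue handling, and the part of handling was not tested. Of 34 listed immediate-early and stress genes, 8 averaged 100 FPKM or more, beside 2.68% of all nuclear protein-coding genes. The 2 lowest, Fosl1 and Egr3, averaged below 1 FPKM, as did 9836 of all 21937 nuclear protein-coding genes. Across this list of 34, replicate 1 was the lowest library for 23, beside 7298 of 20429 of all genes with a mean above 0. Replicate 1 was also the lowest for 11 of 16 signs of RNA and sample quality, with a mitochondrially encoded share of 12.0, 12.8 and 12.9% in the 3 libraries; the part of sample quality was not tested.

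Secreted proteases, protease inhibitors and matrix proteins were also abundant. Serpine2, protease nexin 1, which inhibits plasminogen activators and thrombin, stood at 815, 869 and 1122 FPKM and ranked 27. Ctsl, the cysteine protease cathepsin L, followed at 551, 637 and 735 FPKM, and both were highest in replicate 3. The serine protease Htra1 averaged 429 ± 18.9 FPKM and the chaperone clusterin, Clu, 424 ± 11.8 FPKM. In the matrix Sparc was at 318, 368 and 235 FPKM, fibulin 1 (Fbln1) at 270.4, 257 and 269.6 FPKM and the proteoglycan versican (Vcan) at 279, 265 and 247 FPKM. Sparc was lowest in replicate 3, as were the basement membrane collagens Col4a1 (71.0, 92.7 and 44.3 FPKM) and Col4a2 (45.7, 60.7 and 32.8 FPKM), whereas the laminin chain Lama1 was even at 113, 112 and 119.8 FPKM. The stroma markers summed to less in the same library, as given above, and their part in the collagen values was not tested.

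Of the secreted growth factors listed, 37 of 62 (59.7%) reached 1 FPKM and 4 (6.45%) reached 100 FPKM, beside 55.2% and 2.68% of all nuclear protein-coding genes. Manf, a growth factor made under endoplasmic reticulum load, led at 278, 272 and 253 FPKM. Ctgf, a target of Hippo signalling, was at 88.4, 86.2 and 251 FPKM, so that its mean rests on replicate 3. The hedgehog ligands by which granulosa cells instruct the theca were both present, Ihh at 64.9, 73.9 and 71.9 FPKM and Dhh at 22.0, 22.3 and 26.2 FPKM. Kitl, the ligand for the oocyte's KIT receptor, was at 27.4, 26.6 and 26.4 FPKM. Bmp3 stood at 82.7, 82.6 and 89.3 FPKM and Vegfa, the angiogenic factor, at 61.6, 66.6 and 57.7 FPKM. A further list of 14 secreted products was drawn up after their values were seen, for their abundance. In it were the cytokine Mif, the highest of them (471 ± 67.6 FPKM), the bone morphogenetic protein antagonist Grem1 (113 ± 15.5 FPKM), thrombospondin 1 (Thbs1, 347 ± 45.4 FPKM), the Wnt modulator Sfrp4 (274 ± 57.8 FPKM), the heparan sulphate editing enzyme Sulf2 (296 ± 2.93 FPKM) and the beta-defensin Defb19 (184 ± 11.5 FPKM).

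Genes of cell contact and of the cell cycle were present. Gja1 made up 99.8 ± 0.0304% of the listed connexins. All 45 listed genes of S phase and mitosis reached 1 FPKM and 6 reached 100 FPKM, beside 55.2% and 2.68% of all nuclear protein-coding genes. Mki67, present in cycling cells, was at 86.1, 74.9 and 80.7 FPKM, the topoisomerase Top2a at 102, 83.5 and 91.5 FPKM and the mitotic kinase Cdk1 at 55.5, 40.1 and 51.2 FPKM. Ccnd2, the D cyclin that FSH induces in granulosa cells, made up 86.4 ± 1.43% of the D cyclins at 98.1, 116 and 105 FPKM. Among the cell cycle inhibitors, Cdkn1b (p27) made up 60.1 ± 0.980% of the listed sum at 42.4, 41.5 and 37.4 FPKM. Replicate 1 was the highest library for 35 of the 45 proliferation genes, beside 6834 of 20429 of all genes, and also held the largest share of histone transcripts, 4.57, 3.54 and 3.66% of the FPKM sum. It was also the highest for 17 of 20 oocyte and 9 of 12 endothelial markers, and their part in the proliferation values was not tested.

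Energy and redox genes completed the abundant set. Of the 21 glycolysis and lactate genes 9 averaged 100 FPKM or more, beside 2.68% of all nuclear protein-coding genes. Aldolase A (Aldoa, 513 ± 42.9 FPKM) and enolase (Eno1, 303 ± 21.3 FPKM) led them. Granulosa cells supply the oocyte with pyruvate, and Ldha, which makes lactate, was at 325, 275 and 257 FPKM. Ferritin light chain Ftl1 averaged 724 ± 57.5 FPKM and the peroxiredoxin Prdx1 305 ± 27.3 FPKM. Several abundant genes fall outside the classical ovarian lists and were picked after their values were seen: Greb1, an oestrogen-responsive gene, at 430.5, 391 and 414 FPKM, Socs2, a feedback inhibitor of prolactin and growth hormone signalling, at 349.7, 331 and 376 FPKM, the sialyltransferase St3gal4 at 449, 439 and 589 FPKM and the soluble epoxide hydrolase Ephx2 at 401, 417 and 321 FPKM.

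Several genes of the ovulatory response were close to the lower end of the scale. Of 26 listed, 15 averaged below 1 FPKM, beside 9836 of all 21937 nuclear protein-coding genes. At 10 FPKM or more were 5 (19.2%), beside 31.6% of all nuclear protein-coding genes. The EGF-like ligands Areg, Ereg and Btc stood at 0.743, 0.408 and 0.913 FPKM, 1.30, 1.06 and 0.720 FPKM and 1.09, 1.05 and 1.37 FPKM, respectively. Ptgs2, the inducible prostaglandin synthase, was at 1.15, 0.465 and 0.525 FPKM, and the genes of cumulus matrix assembly Has2, Tnfaip6 and Ptx3 averaged 0.713, 0.790 and 0.242 FPKM. A few members of the list were well above that level before hCG. Vnn1, a pantetheinase, averaged 98.7 ± 17.4 FPKM, and Adamts1, the protease that cleaves versican at ovulation, was at 38.9, 38.2 and 41.8 FPKM. Cebpb and Runx1, transcription factors of the luteinizing cell, were at 19.6, 29.5 and 16.6 FPKM and 16.6, 21.3 and 13.7 FPKM. Vnn1 was lowest and Rgs2 highest in replicate 3.

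Interferon-inducible genes differed widely between libraries. The median ratio of replicate 3 to the mean of the other libraries was 0.447 over the list and 1.00 over all genes. The list of 47 genes was drawn up after some of these values had been seen, and replicates carry no order, so the counts are a description. Bst2, tetherin, was at 369.7, 294 and 197 FPKM, the membrane protein Ifitm3 at 80.2, 31.6 and 17.0 FPKM and Ifi27 at 130.4, 72.4 and 33.9 FPKM. The ubiquitin-like Isg15 stood at 12.6, 3.88 and 1.01 FPKM, its removing enzyme Usp18 at 8.66, 4.01 and 3.18 FPKM and the transcription factor Irf7 at 16.8, 8.61 and 2.94 FPKM. All were highest in replicate 1 and lowest in replicate 3. The class I antigen gene H2-D1 was also lowest in replicate 3 but highest in replicate 2, at 93.3, 132 and 52.6 FPKM. In all, 42 of 47 were lowest in replicate 3, or 89.4%, beside 30.9% of 20429 genes with a mean above 0. The pattern of highest in replicate 1 and lowest in replicate 3 was held by 63.8% of the list and 16.7% of all genes. The same order was held by 8 of 15 stroma and 6 of 12 endothelial markers. It was also held by 12 of 22 genes of folding and secretion and 15 of 30 of sterol and fatty acid synthesis. Of the glycolysis and lactate genes 10 of 21 held it, and of the immediate-early and stress genes 3 of 34. Leukocyte markers had another order, with 12 of 16 highest in replicate 2. The leukocyte sum was 43.1, 66.9 and 42.8 FPKM; the part of stroma, endothelium and leukocytes in the interferon values was not tested.

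**Figure D4:**
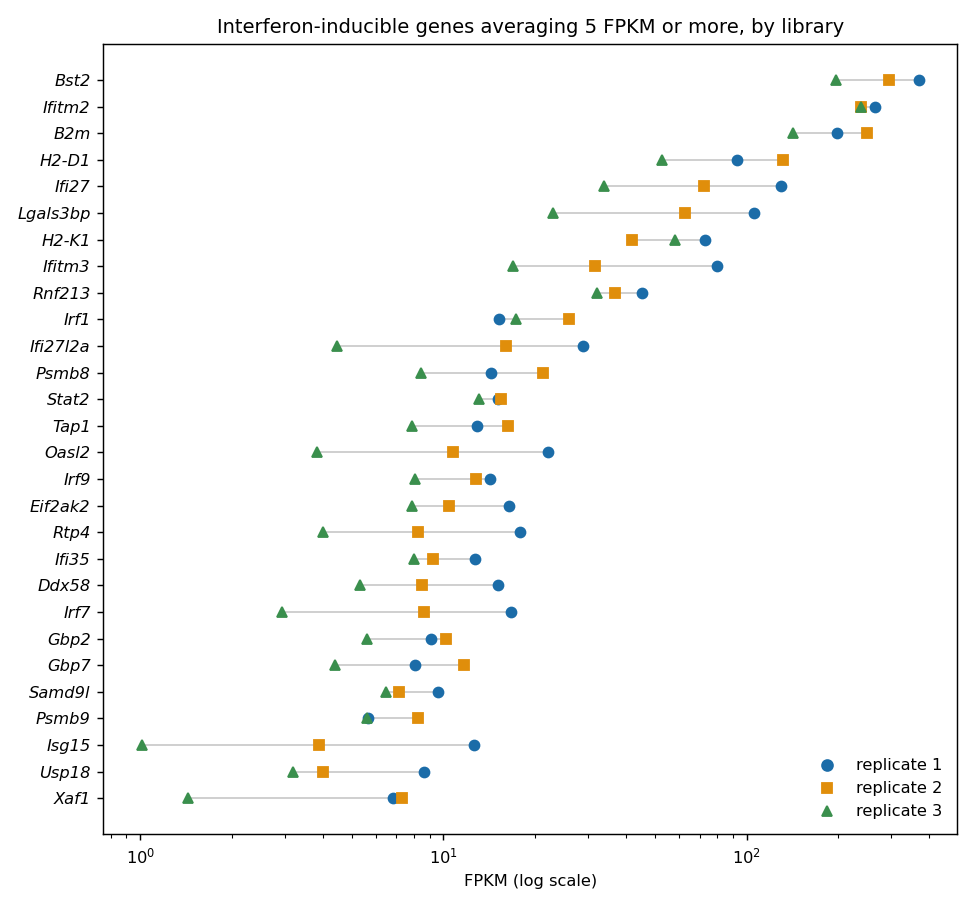
FPKM (log scale) of 28 interferon-inducible genes averaging 5 FPKM or more, 1 row per gene; symbols are the 3 libraries and the grey line spans their range, and 1 further gene at this level is not drawn. Replicate 3 is the lowest library for 25 of the genes drawn and replicate 1 the highest for 18.

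The genes with the widest spread were otherwise a mixed set. Foxn3, a forkhead factor, stood at 38.9, 42.0 and 287 FPKM, and its high value came from 1 of 7 transcripts, listed at 0 in replicates 1 and 2 and at 241 FPKM in replicate 3. Cemip, a hyaluronan-degrading protein, was at 36.1, 61.3 and 14.6 FPKM, and the calcium-binding S100a4 at 21.4, 54.7 and 13.9 FPKM. Lgals3bp, a secreted galectin ligand, is on the interferon list and was at 106, 62.8 and 23.0 FPKM. The single-row genes Gm9805 (282, 0 and 0 FPKM) and Gm10197 (19.9, 0 and 46.1 FPKM) were listed at 0 in at least 1 library while others were well above it, and such a 0 can be a failed estimate. Ranges were narrower for several hormones, receptors and steroid enzymes described above: the highest library exceeded the lowest by 1.09-fold for Inha, 1.11-fold for Inhba, 1.23-fold for Lhcgr, 1.16-fold for Fshr, 1.08-fold for Cyp19a1 and 1.19-fold for Nr5a2, but by 2.01-fold for Akr1c18, 1.84-fold for Ghr, 1.76-fold for Fdx1, 1.69-fold for Oxtr, 1.66-fold for Cyp17a1 and 1.56-fold for Esr2.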

How the data were processed

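Total RNA (Trizol) of granulosa cells was made into libraries from 1 µg with an Illumina TruSeq RNA kit, per the labels' protocols. The submitters' processing notes list HISAT2 2.0.5 and mm10. For the FPKM values, how they were computed, and whether by strand, was not given in the sources used here. Deposited tables give the authors' FPKM for 54759 transcript rows per library. Rows were summed per gene identifier (25059 genes, 11778 with more than 1 row). Gene types are those deposited with each gene's most abundant row. Coordinates were taken from GENCODE M21 for 23953 of 24275 Ensembl identifiers. Depth is unknown: reads cannot be recovered, since 9364 to 9682 rows per library lie above 0 but below 0.001 FPKM. Values were averaged and ranked in Python 3.11.15 with pandas 2.3.3 and numpy 2.4.6, figures were drawn with matplotlib 3.10.9, and the ranking was tested on simulated data. The 6 libraries taken 1 h and 6 h after hCG were not used. Promoters are RefSeq's. Named genes are the 30 most abundant, the 8 highest of each list with members a pathway needs, and the 10 most variable averaging 20 FPKM or more; a few of these are not reported here. The members and lists were chosen with earlier results of these data known; the lists of interferon-inducible genes, other abundant secreted products and other abundant genes were added after values were seen. Alternatives were a gene's most abundant row, scaling to 1000000, medians, other sums and thresholds, and leaving out each library.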

Additional observations from a re-analysis of the deposited data

How the results depend on the processing

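No paired analysis was possible because the report describes a single group and makes no test. Scaling each library to a sum of 1000000 moved the number of genes at 100 or more from 613 to 1429 and at 1000 or more from 34.7 to 94.3 (means over libraries), because the FPKM sums are below that. The 10 highest genes took 20.7% of the FPKM sum, 13.5% without mitochondrially encoded genes and 16.2% among protein-coding genes; the 100 highest took 36.8%, 28.6% and 32.7%. Ribosomal protein genes took 9.04%, 10.3% and 10.1%, and mitochondrially encoded genes 12.6%, or 14.0% of the protein-coding sum. The 159 genes past 1.5 times became 7773 with no filter on low values, where the median coefficient of variation was 14.1% in place of 5.95%. Leaving out a library gave 43 to 97 such genes: 97 without replicate 1, 96 without replicate 2 and 43 without replicate 3, each from 2 libraries. At 5 FPKM the markers counted fell from 16 to 6 for oocyte, from 10 to 2 for endothelium, from 11 to 3 for leukocytes and from 7 to 1 for surface epithelium. Of all 21937 nuclear protein-coding genes, 12101 averaged 1 FPKM or more and 9297 averaged 5 FPKM or more. Of 46 gene ranks, 32 moved by more than the spread between libraries when only the most abundant transcript was used, and at most 2 did so when a library was left out. The share of interferon-inducible genes highest in replicate 1 and lowest in replicate 3 was 55.2% to 63.8% under its alternatives, which were chosen after seeing the data, beside 63.8%. Depth limits are unknown, and values below 1 FPKM are the least certain.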

Other observations

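Transcripts that encode no nuclear protein took a large part of these libraries. Malat1, a nuclear long non-coding RNA, stood at 16004, 18439 and 19499 FPKM, and the long non-coding Gm26917 at 18095, 17931 and 15737 FPKM, or 3.65 ± 0.376% and 3.50 ± 0.261% of the FPKM sum. The imprinted non-coding RNAs Meg3 and Rian, which share a gene cluster, were at 148, 139 and 191 FPKM and 155, 134 and 158 FPKM, and Neat1, the scaffold of paraspeckles, at 267, 358 and 284 FPKM. The 13 mitochondrially encoded protein genes took 12.6 ± 0.538% of the sum, very unevenly.

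The highest was mt-Atp8, at 30212, 32489 and 34308 FPKM, a short gene that overlaps mt-Atp6, which was at 10.1, 11.4 and 13.4 FPKM. mt-Co1 was at 8518, 8716 and 8346 FPKM, whereas mt-Co2 and mt-Co3, subunits of the same enzyme, averaged 2.41 and 1.93 FPKM. Levels of single mitochondrial genes in these tables are therefore uncertain, and nuclear genes of the respiratory chain and ATP synthase took 1.88 ± 0.0701% of the sum.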
